A study of Mus musculus with 18 samples.

Results

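The 7 genes described here are expressed in vascular endothelium, and several of them act in the adhesion of blood cells to the vessel wall. They are Vwf, Pecam1, Icam1, Icam2, Vcam1, Plvap and Itm2a, chosen by symbol, and all 7 were among the 13784 genes of each of the 3 analysed tables. RNA came from dissected cortex, as bulk tissue, of 18 mice in 4 groups. Control mice were given saline (4 mice) or lipopolysaccharide (LPS, 5 mice), a component of the outer membrane of Gram-negative bacteria to which the innate immune system responds. Mice in which the chromatin remodeller gene Chd8 was deleted conditionally in astrocytes (cKO) were likewise given saline (4 mice) or LPS (5 mice). LPS was injected into the abdominal cavity of mice aged 4 to 6 months at 5 mg/kg, and brains were taken 72 hours later. Age and time of collection are recorded for the LPS groups and not for the saline groups. The driver of the knockout, the alleles the controls carry and the sex of the mice are not given in the sources used here. The deletion is in astrocytes, and each value below sums over all cells of the tissue, astrocytes and endothelium included. The study asked how loss of Chd8 in astrocytes alters cortical expression at baseline and during neuroinflammation.

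Endothelial cells line the vessels and, when inflamed, slow and capture passing leukocytes. Capture begins with selectins and is made firm when integrins on the leukocyte bind immunoglobulin-family proteins on the endothelium: ICAM-1 and ICAM-2 bind the beta2 integrins and VCAM-1 binds the alpha4 integrins. PECAM-1, at the junctions between endothelial cells, takes part in the passage of leukocytes across the wall. Von Willebrand factor is stored in the Weibel-Palade bodies of endothelial cells and, once released, tethers platelets. PLVAP forms the diaphragms of caveolae and fenestrae and is normally scarce in brain vessels with a barrier. ITM2A is a type II membrane protein that is abundant in brain endothelium and also made by T lymphocytes.

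All values come from the authors' deposited tables of 3 comparisons: LPS against saline in controls, LPS against saline in cKO mice, and cKO against control after LPS. A gene is said to have risen or fallen where its false discovery rate (FDR) in the authors' deposited table was below 0.05. Values per mouse were not analysed here, so the depth of each library is unknown, and the level of a group in CPM (reads of the gene scaled to the total of its library) is an estimate from the fold change and the mean level, without an error. The tables do not name the direction of their fold changes, which was taken as the only reading under which the group levels of the 3 tables match. Errors of log2 fold changes are standard errors (SE) derived from the deposited F statistic. Chd8 itself, measured over all cells of the cortex, had a log2 difference of 0.02 ± 0.05 SE between cKO and control mice after LPS in the authors' deposited table, which does not check the deletion in astrocytes. Transcripts of the sex chromosomes stood at different levels in the groups: the estimated level of the Y-linked gene Ddx3y was 0.00687 CPM in control saline, 12.8 in control LPS, 58.6 in cKO saline and 52.5 in cKO LPS. Treatment or genotype and the sex of the mice therefore cannot be told apart in full, and the same holds for any difference in library preparation, since the codes of saline and LPS libraries have different forms and no batch is named.

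In control cortex, LPS raised 5 of the 7 genes and lowered none. The rise was largest for Vwf and Icam1, 4.23-fold and 3.77-fold, smaller for Pecam1 and Itm2a, and smallest for Vcam1, while Icam2 and Plvap did not pass. In the authors' deposited table for controls 6.46% of all genes rose and 3.31% fell. With a fold change of at least 1.5 asked for as well, 3 members rose in controls (3.32% of all genes), and at an FDR below 0.01 there were 4 (1.65% of all genes). At an unadjusted p below 0.05, 6 of the 7 differed in controls, against 28.9% of all genes. In cKO cortex 4 of the 7 rose (Vwf, Icam1, Pecam1 and Plvap) and none fell, where 10.9% of all genes rose and 8.52% fell. All 4 had a fold change of at least 1.5 (4.03% of all genes), and Vwf alone had an FDR below 0.01 (1.99% of all genes). At an unadjusted p below 0.05, 6 of the 7 differed in cKO mice, against 35.8% of all genes. Between the genotypes after LPS none of the 7 passed the authors' test, for which edgeR is the only testing tool the submitters name, and 0.00725% of all genes did. At an unadjusted p below 0.05, 2 of the 7 differed (Plvap and Itm2a), against 12.3% of all genes.

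**Figure D1:**
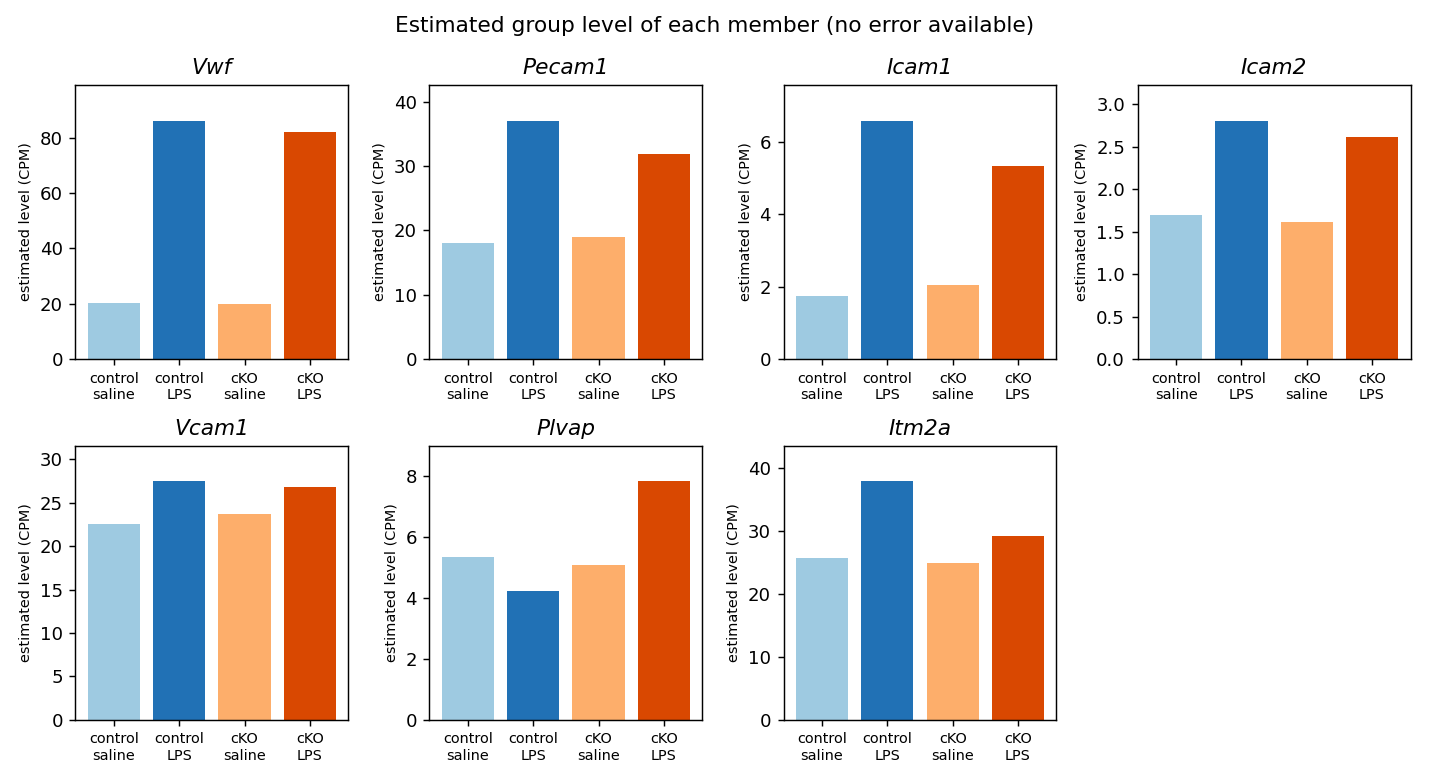
Estimated level of each gene (y axis, CPM, one panel per gene with its own scale starting at 0) in the 4 groups (x axis). The bars are group estimates from the deposited fold change and mean level and have no error. Vwf stands near 20 CPM in both saline groups and above 80 CPM in both LPS groups, and Plvap is highest in cKO LPS.

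Vwf encodes von Willebrand factor, the platelet-tethering glycoprotein stored by endothelial cells and megakaryocytes. Its estimated level was 20.4 CPM in control saline and 86.2 CPM in control LPS, and 19.99 CPM in cKO saline and 82.1 CPM in cKO LPS. The saline groups thus lay close together, and so did the LPS groups. In controls the log2 fold change after LPS was 2.08 ± 0.10 SE (FDR = 1.68e-05) in the authors' deposited table, a 4.23-fold rise with a 95% interval from 3.65 to 4.91. Of all 13784 genes in that table Vwf had the smallest p-value, rank 1, and rank 35 by size of the rise. In cKO mice it rose by 2.04 ± 0.28 SE (FDR = 0.00496) in the authors' deposited table, 4.11-fold with an interval from 2.65 to 6.37. After LPS the log2 difference of cKO from control mice was -0.08 ± 0.32 SE (FDR = 0.943) in the authors' deposited table, and the interval of that ratio, 0.575 to 1.56, leaves room for a difference of over 1.5-fold in either direction.

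Markers of other cells that make or carry von Willebrand factor were looked for. None of 7 platelet and megakaryocyte markers, among them Pf4 and Itga2b, was among the genes analysed here, and neither was any of 9 neutrophil or 5 red blood cell markers, so blood content could not be followed with them.

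Pecam1, the junctional adhesion molecule also present on platelets and leukocytes, was estimated at 18.0 CPM in control saline, 37.1 in control LPS, 19.0 in cKO saline and 32.0 in cKO LPS. Both LPS groups were higher than both saline groups. The log2 fold change was 1.04 ± 0.08 SE in controls (FDR = 0.000148, rank 19 by p-value) and 0.75 ± 0.18 SE in cKO mice (FDR = 0.0233) in the authors' deposited tables. The genotypes after LPS had a log2 difference of -0.26 ± 0.20 SE (FDR = 0.629) in the authors' deposited table.

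Icam1 encodes the inducible ligand of the beta2 integrins LFA-1 and Mac-1, and is made by endothelium and by activated microglia and macrophages. Its level was low, at 1.75 CPM in control saline, 6.59 in control LPS, 2.06 in cKO saline and 5.33 in cKO LPS. It rose in controls by a log2 fold change of 1.92 ± 0.19 SE (FDR = 0.000355), 3.77-fold with an interval from 2.83 to 5.02, in the authors' deposited table. In cKO mice it rose by 1.37 ± 0.37 SE (FDR = 0.0320), 2.59-fold with an interval from 1.45 to 4.603, in the authors' deposited table. The log2 difference of cKO from control mice after LPS was -0.43 ± 0.39 SE (FDR = 0.680) in the authors' deposited table. Of 10 measured microglia and macrophage markers, 7 rose and none fell in controls (median log2 fold change 0.82), and 5 rose and 1 fell in cKO mice (median 0.61), against medians of 0.00 over all genes. The summed level of these markers was 199.5 CPM in control saline, 333.9 in control LPS, 197.6 in cKO saline and 264.8 in cKO LPS. The sum of 19 endothelial identity genes, described below, was 384.4, 559.2, 398.7 and 523.9 CPM in the same order of groups. Both sums, like Icam1, were thus higher in each LPS group than in its saline group. The part of either cell type in the Icam1 values was not tested. In whole tissue, more cells of a type and more RNA per cell cannot be told apart, here and for every gene below.

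The stretch upstream of Icam1 is shown because Icam1 had the largest rise after Vwf. Its inducibility is also known to run through NF-kB and STAT factors. That of Itm2a is shown beside it as the only other member found in the promoter table. Itm2a also rose in controls, so it is not a contrast by response. Both are the 250 bases before the annotated start in RefSeq (GRCm38.p6), written in the direction of the gene: Icam1 at chr9:21015690-21015939 on the plus strand and Itm2a at chrX:107403361-107403610 on the minus strand. Capitals mark matches to a kappa-B motif of 9 letters (GGNNNTTCC) or of 10 letters, or to the GAS motif (TTCNNNGAA), searched on both strands.
Icam1: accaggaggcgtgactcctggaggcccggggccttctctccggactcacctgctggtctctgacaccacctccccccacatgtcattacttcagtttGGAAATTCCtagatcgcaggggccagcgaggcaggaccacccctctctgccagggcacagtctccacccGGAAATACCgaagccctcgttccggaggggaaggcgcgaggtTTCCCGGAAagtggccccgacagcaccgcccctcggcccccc
Itm2a: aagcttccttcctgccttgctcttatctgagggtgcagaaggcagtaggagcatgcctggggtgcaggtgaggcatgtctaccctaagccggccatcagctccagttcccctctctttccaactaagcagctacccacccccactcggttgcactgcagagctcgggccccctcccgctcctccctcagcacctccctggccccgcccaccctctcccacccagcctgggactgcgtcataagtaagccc

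The Icam1 stretch held GGAAATTCC, a kappa-B match on both strands, 153 to 145 bases before the start, and GGAAATACC, a match on the opposite strand, 84 to 76 bases before it. It also held the GAS match TTCCCGGAA 42 to 34 bases before the start. The ETS core CCGGAA occurred 3 times, at 86 to 81, 65 to 60 and 39 to 34 bases before the start; the match at 86 to 81 overlaps the second kappa-B match and that at 39 to 34 lies within the GAS match. The Itm2a stretch had no match to these motifs and shared with Icam1 only the GC box GGGCGG on the opposite strand. Of 32851 stretches of the same length in the table, 15.7% held GGNNNTTCC, 15.2% the kappa-B motif of 10 letters, 7.02% TTCNNNGAA, 12.0% CCGGAA and 32.7% GGGCGG. The AP-1 motif TGACTCA (4.46% of stretches) and TATAAA (12.4%) matched in neither of the printed stretches. These are matches of letters, and no binding was measured.

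Icam2 encodes a ligand of LFA-1 that resting endothelium and platelets already carry. It was estimated at 1.69 CPM in control saline, 2.81 in control LPS, 1.61 in cKO saline and 2.62 in cKO LPS. Its log2 fold change was 0.73 ± 0.21 SE in controls (FDR = 0.0574) and 0.70 ± 0.26 SE in cKO mice (FDR = 0.0822) in the authors' deposited tables, so both values were positive and neither passed. Per kilobase of the longest annotated transcript, the Icam1 level was 0.522 times that of Icam2 in control saline and 1.19 times in control LPS, and 0.646 times in cKO saline and 1.03 times in cKO LPS. The lead of Icam2 in the saline groups was thus gone in the LPS groups; these ratios of estimated levels have no error. After LPS the genotypes had a log2 difference of -0.13 ± 0.27 SE for Icam2 (FDR = 0.875) in the authors' deposited table.

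Vcam1 encodes the endothelial ligand of the integrin VLA-4. It was estimated at 22.6 CPM in control saline, 27.4 in control LPS, 23.7 in cKO saline and 26.9 in cKO LPS, a narrow range. It rose in controls by a log2 fold change of 0.28 ± 0.07 SE (FDR = 0.0399), 1.22-fold with an interval from 1.09 to 1.36, in the authors' deposited table. In cKO mice it had 0.18 ± 0.14 SE (FDR = 0.386) in the authors' deposited table. The integrin ligands thus stood far apart at this time after LPS, with log2 fold changes from 0.28 for Vcam1 to 1.92 for Icam1 in controls. The log2 difference between genotypes after LPS was -0.04 ± 0.13 SE for Vcam1 (FDR = 0.920) in the authors' deposited table.

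Plvap, the diaphragm gene, was the member whose estimates had opposite signs after LPS in the genotypes. It was estimated at 5.32 CPM in control saline, 4.21 in control LPS, 5.09 in cKO saline and 7.81 in cKO LPS. The saline groups were close together, and the LPS groups lay on opposite sides of them. In controls the log2 fold change was -0.34 ± 0.26 SE (FDR = 0.432) in the authors' deposited table. In cKO mice Plvap rose by 0.62 ± 0.15 SE (FDR = 0.0229), 1.54-fold with an interval from 1.22 to 1.94, in the authors' deposited table. After LPS its log2 difference of cKO from control mice was 1.07 ± 0.19 SE, a ratio of 2.10 with an interval from 1.55 to 2.83, in the authors' deposited table. That was rank 33 by p-value of 13784 genes and did not pass over all genes (FDR = 0.147).

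Fenestrated vessels rich in PLVAP lie in the choroid plexus, the tissue that secretes cerebrospinal fluid. Of 9 choroid plexus markers 4 were measured (Ttr, Kl, Clic6 and Prlr), and all 4 lay on the same side as Plvap between the genotypes after LPS (median log2 difference 0.79) without passing. Their summed level was 118.4 CPM in control saline, 13.5 in control LPS, 120.3 in cKO saline and 25.3 in cKO LPS, and in the saline groups most of it was Ttr (105.8 and 108.3 CPM). All 4 lay below 0 after LPS in controls (median log2 fold change -0.93) and in cKO mice (median -0.29), and none passed in either genotype. Ttr, which carries most of the change in the sum, had -4.03 ± 1.96 SE in controls (FDR = 0.206) and -2.83 ± 1.86 SE in cKO mice (FDR = 0.303) in the authors' deposited tables. The part of such tissue in the Plvap values was not tested.

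Itm2a was estimated at 25.7 CPM in control saline, 37.8 in control LPS, 24.8 in cKO saline and 29.1 in cKO LPS, so control LPS stood above the other groups. It rose in controls by a log2 fold change of 0.56 ± 0.09 SE (FDR = 0.00789), 1.47-fold, in the authors' deposited table. In cKO mice it had 0.23 ± 0.08 SE (FDR = 0.0866), 1.17-fold, in the authors' deposited table. After LPS its log2 difference of cKO from control mice was -0.42 ± 0.11 SE (FDR = 0.282) in the authors' deposited table, which did not pass. Itm2a is on the X chromosome, and the X-linked transcript Xist was estimated at 177.1 CPM in control saline, 161.2 in control LPS, 20.3 in cKO saline and 60.0 in cKO LPS. The part of this difference in the Itm2a values was not tested. Of 9 T and B lymphocyte markers only Cd4, which microglia also express, was among the genes analysed here, at 2.16 to 3.43 CPM in the 4 groups.

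**Figure D2:**
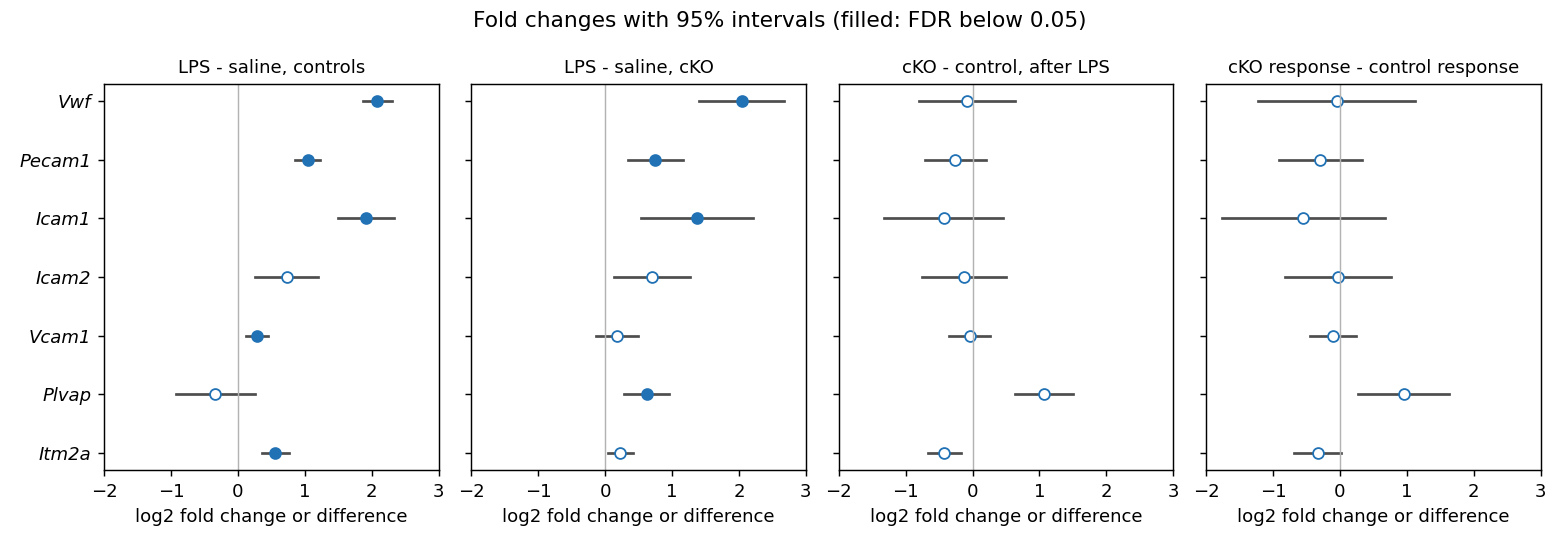
Log2 fold change (x axis) of each gene (y axis) for LPS against saline in controls, the same in cKO mice, cKO against control after LPS, and the difference of the LPS responses. Lines are 95% intervals and filled points have an FDR below 0.05; Vwf, Icam1 and Pecam1 are filled in both LPS panels, and no point is filled in the genotype and difference panels.

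Whether the genotypes responded differently to LPS was tested as the difference of the LPS fold changes, cKO minus control, over all 13784 genes. None of the 7 passed with a Benjamini-Hochberg adjusted p below 0.05 by this normal test, and 0.00725% of all genes did. At an unadjusted p below 0.05 there was 1 of 7, Plvap, against 6.52% of all genes. This count depends on the SE. With SE from the F statistic and a t test, Itm2a (unadjusted p = 0.0157) joined Plvap (unadjusted p = 0.00643). Neither passed after adjustment (adjusted p = 0.484 and 0.391), and the share of all genes was not counted for that setting. By the normal test, Plvap had a log2 difference of 0.96 ± 0.35 SE (95% interval 0.28 to 1.63, unadjusted p = 0.00585, adjusted p = 0.518). Itm2a had -0.33 ± 0.18 SE (-0.68 to 0.02; adjusted p = 0.776) and Icam1 -0.54 ± 0.62 SE (-1.77 to 0.68; adjusted p = 0.919). Pecam1 had -0.30 ± 0.32 SE (-0.92 to 0.33; adjusted p = 0.907), and Vcam1 -0.10 ± 0.18 SE (-0.45 to 0.25; adjusted p = 0.9501). The intervals of Vwf, from -1.22 to 1.13 around -0.04, and Icam2, from -0.83 to 0.76 around -0.03, were wide on both sides of 0. Part of this width comes from the normal quantile, which gives wider SE than the F statistic. For Vwf the SE of the difference was 0.60 by the normal quantile and 0.30 from F, and for Icam2 0.41 and 0.33. Itm2a and Vcam1 had the narrowest intervals of the 7, and for the other 5 genes the interval reached at least 0.83 from 0.

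No table compares the saline groups. The estimate of cKO minus control after saline, from the 3 fold changes and without a test, was between -0.10 and 0.12 on the log2 scale for all 7 genes. Icam1 (0.12) and Plvap (0.11) were highest and Icam2 (-0.10) and Itm2a (-0.09) lowest. The estimated group levels, which come from the LPS tables alone, differ from this in part. For Plvap they lay the other way, at 5.32 CPM in control saline and 5.09 in cKO saline. For Icam1 they were 0.80 and 1.04 log2 CPM, further apart than this estimate. The other members kept their sign. Neither route has an error, so the order and the sign for Plvap are not settled.

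The order of levels within a group changed with LPS. Per kilobase of the longest transcript, Itm2a was highest in each of the 4 groups, at 14.7 CPM per kilobase in control saline. In both saline groups Vcam1, Pecam1, Plvap, Vwf, Icam2 and Icam1 followed in that order. The neighbours Vcam1 and Pecam1 (5.52 and 5.23 CPM per kilobase in control saline) and Plvap and Vwf (2.68 and 2.30) stood close together, and their errors are unknown. Vwf, the fifth in saline, was the third in control LPS at 9.76 CPM per kilobase. In cKO LPS Vwf and Pecam1 stood level as the second, both at 9.29. Plvap was the lowest in control LPS at 2.12 CPM per kilobase and above Icam1 and Icam2 in cKO LPS at 3.93.

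The SE of the LPS response was larger in cKO mice than in controls for 5 of the 7 members and smaller for Itm2a and Plvap. The SE of the log2 fold change was 0.28 in cKO mice against 0.10 in controls for Vwf, a ratio of 2.95. The ratio was 2.22 for Pecam1, 2.01 for Icam1 and 1.96 for Vcam1, and these 4 lay at the 99.1 percentile or higher of all genes, whose median ratio was 0.981. Itm2a (0.925) and Icam2 (1.21) were nearer to that median, and Plvap (0.572, percentile 1.57) lay at the other end. The lower rank of these genes by p-value in cKO mice (Vwf 89, Pecam1 1370, Icam1 1882) thus goes with wider errors, and for Vwf with a nearly equal fold change. Of 19 other endothelial identity genes, 18 had a ratio above 1 (median 1.34), and of 9 fibroblast and meningeal genes 8 had (median 1.56). Over all 13784 genes, 6476 had. Ratios above 1 were not particular to the vessel wall. Of 10 microglia and macrophage genes 6 had one (median 1.45), and of 7 astrocyte genes 6 had (median 1.39). Of 8 neuronal genes 3 had (median 0.868), and of 4 choroid plexus genes 1 had (median 0.915). The spread among mice behind these errors was not analysed here.

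To set the members beside other genes of the vessel wall, they were compared with 19 genes of endothelial identity, such as Cldn5 of the tight junction, Cdh5 of the adherens junction and the receptor genes Tek, Flt1 and Kdr. In the authors' deposited table for controls, 15 of the 19 rose and none fell, with a median log2 fold change of 0.70 against 0.00 over all genes. In cKO mice 10 rose and none fell, with a median of 0.41. The largest rise among them was that of the co-receptor gene Eng, at 1.45 ± 0.21 SE in controls and 1.32 ± 0.27 SE in cKO mice in the authors' deposited tables. Vwf and Icam1 lay above all 19 genes in both genotypes. Pecam1 lay above 17 in controls and 15 in cKO mice, Icam2 above 12 and 14, Itm2a above 9 and 3, and Vcam1 above 2 and 2. Plvap lay below all 19 in controls and above 14 in cKO mice. Between the genotypes after LPS, 17 of the 19 identity genes were below 0 (median log2 difference -0.21) without passing, and Plvap lay above all of them. No test compared the members with these genes. Of the pericyte and smooth muscle markers, 2 of 11 rose in controls and 3 in cKO mice, with medians of 0.29 and 0.25.

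**Figure D3:**
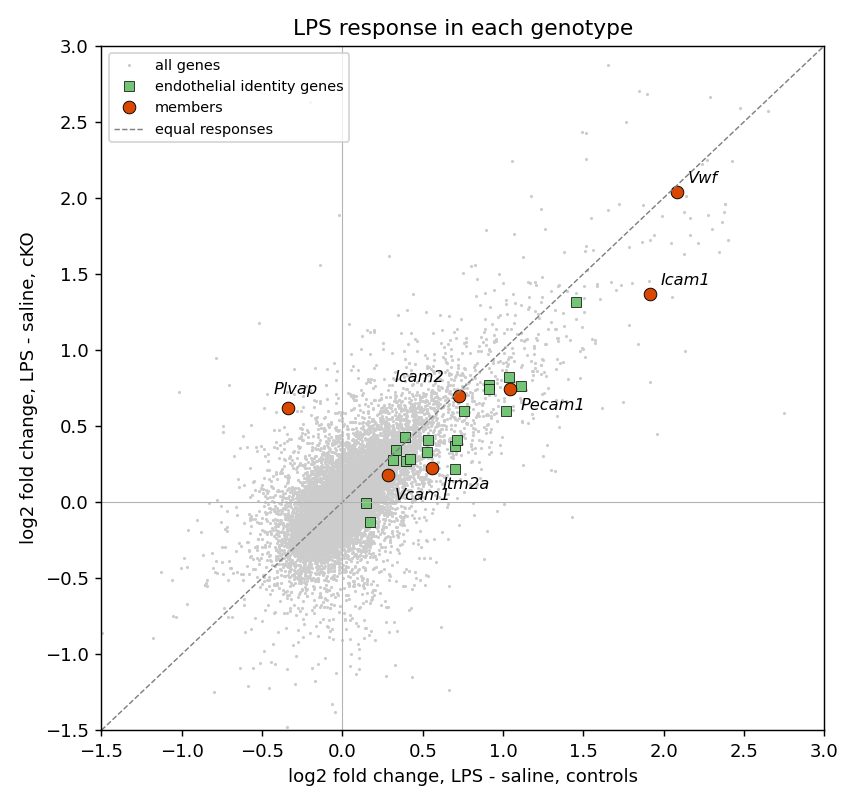
Log2 fold change after LPS in cKO mice (y axis) against that in controls (x axis) for all genes (grey), 19 endothelial identity genes (green squares) and the 7 members (orange circles); the dashed line marks equal responses, and genes beyond the axis limits are not drawn. Vwf lies near the dashed line at 2.08 and 2.04, and Plvap is the only member with values of opposite sign.

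Other genes of leukocyte adhesion and passage responded in part; several are also expressed outside endothelium, and Icam5, the neuronal family member, is counted among them. Of 12 measured genes of 17, 5 rose in controls and 4 in cKO mice, and none fell (medians 0.18 and 0.10). Those that rose in controls were Cdh5 (1.11 ± 0.11 SE), the junctional adhesion molecule gene F11r (1.02 ± 0.16 SE), the chemokine-scavenging receptor gene Ackr1 of venules (0.89 ± 0.17 SE), Esam (0.70 ± 0.08 SE) and the sialomucin gene Podxl (0.60 ± 0.09 SE) in the authors' deposited table. In cKO mice F11r (0.77 ± 0.21 SE), Cdh5 (0.77 ± 0.15 SE), Podxl (0.52 ± 0.15 SE) and Esam (0.37 ± 0.11 SE) rose in the authors' deposited table. The selectin genes Sele and Selp were not analysed here. Icam5 had -0.26 ± 0.11 SE (FDR = 0.141) in controls in the authors' deposited table. Cdh5 and Esam also stand in the identity list, so the lists are not separate.

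The leukocyte integrins that bind these ligands were uneven. Of 8 measured counter-receptor genes of 13, 4 rose in controls and 2 in cKO mice, and none fell (medians 0.24 and 0.19). Itgb2, the beta2 subunit that pairs to bind ICAM-1, rose by 1.503 ± 0.13 SE in controls and 1.34 ± 0.32 SE in cKO mice in the authors' deposited tables. Its partner gene Itgam, of Mac-1, rose by 1.57 ± 0.17 SE and 1.06 ± 0.28 SE in the authors' deposited tables; microglia express both. Itga4, the VLA-4 subunit that binds VCAM-1, had 0.19 ± 0.17 SE (FDR = 0.498) and 0.20 ± 0.15 SE (FDR = 0.355) in the authors' deposited tables. Cd38, a ligand of PECAM-1, rose in controls by 0.92 ± 0.21 SE, as did Itgb1 by 0.30 ± 0.06 SE, in the authors' deposited table.

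Around Vwf, 3 of 10 measured genes of the Weibel-Palade body and of von Willebrand factor handling rose in each genotype and none fell (medians 0.14 in controls and 0.22 in cKO mice). In controls these were Angpt2, a vessel-destabilising ligand stored in the same granules (1.20 ± 0.18 SE), the annexin gene Anxa2 (0.95 ± 0.14 SE) and the tetraspanin gene Cd63 (0.64 ± 0.14 SE) in the authors' deposited table. In cKO mice Anxa2 (1.06 ± 0.27 SE), Thbs1 (0.74 ± 0.21 SE) and Cd63 (0.53 ± 0.13 SE) rose, and Angpt2 had 1.01 ± 0.36 SE (FDR = 0.0760), in the authors' deposited table. F8, which encodes the coagulation factor that von Willebrand factor carries, had -0.15 ± 0.11 SE in controls and -0.22 ± 0.10 SE in cKO mice in the authors' deposited tables and passed in neither. Adamts13, the protease that trims von Willebrand factor, was not analysed here.

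Around Plvap, 3 of 8 genes of caveolae rose in each genotype (medians 0.30 in controls and 0.32 in cKO mice). They were Cav1 (1.11 ± 0.13 SE in controls and 0.67 ± 0.18 SE in cKO mice), Ehd2 (1.04 ± 0.15 SE and 0.95 ± 0.28 SE) and Cavin1 (0.75 ± 0.12 SE and 0.84 ± 0.15 SE) in the authors' deposited tables. The other 5 genes of the list, among them Cav2, Cavin2 and Cavin3, passed in neither genotype. Wnt/beta-catenin signalling in brain endothelium is known to hold Plvap low. Of 14 Wnt and barrier genes, 3 rose in controls and 3 in cKO mice, and none fell (medians 0.31 and 0.28). The Wnt target Apcdd1 rose in controls by 0.85 ± 0.06 SE and had 0.26 ± 0.09 SE (FDR = 0.0565) in cKO mice in the authors' deposited tables. Between the genotypes after LPS it had a log2 difference of -0.60 ± 0.09 SE (FDR = 0.147) in the authors' deposited table, and 11 of the 14 genes were below 0 (median -0.16) with none past the threshold. The median over all genes was 0.00, and 17 of the 19 endothelial identity genes were likewise below 0 (median -0.21). The part of Wnt signalling in the Plvap values was not tested. The co-receptor gene Lrp5 rose by 0.52 ± 0.12 SE in controls and 0.55 ± 0.11 SE in cKO mice in the authors' deposited tables.

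**Figure D4:**
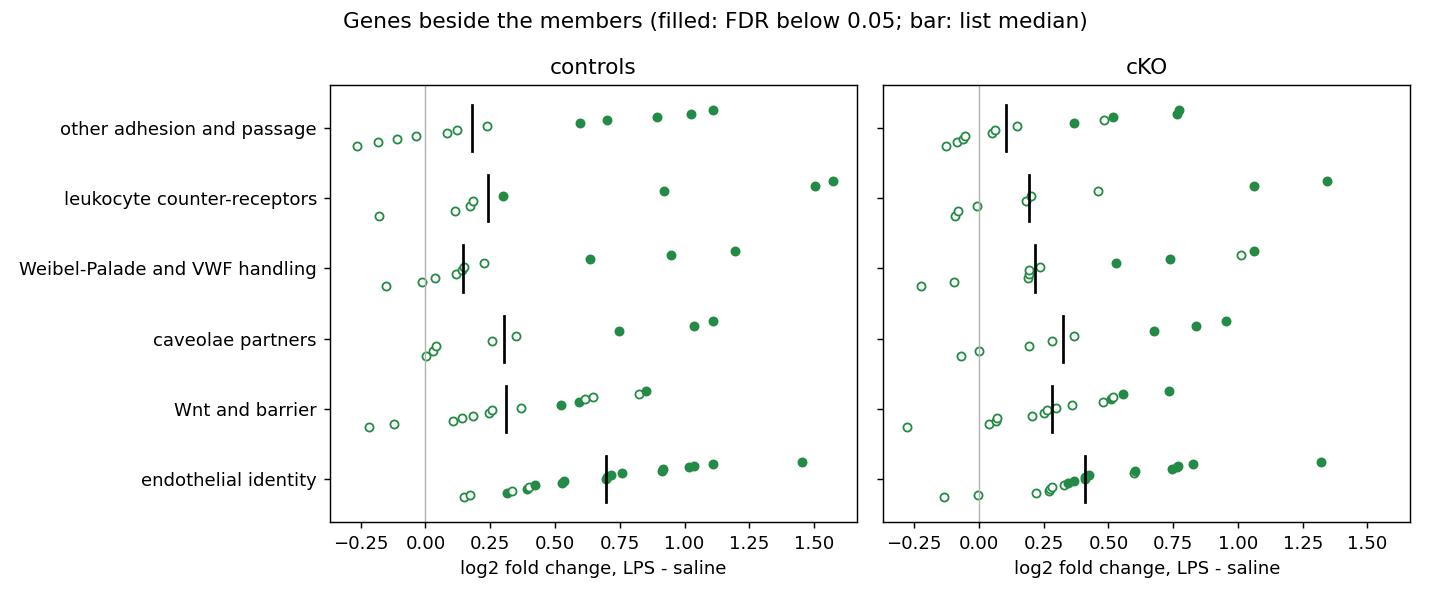
Log2 fold change after LPS (x axis) of the genes in 5 pathway lists and the endothelial identity list (y axis), in controls and in cKO mice, with the members left out. Each point is a gene, filled where the FDR is below 0.05, and the bar is the list median; the identity list has the highest median in both panels, 0.70 and 0.41.

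The genes nearest to a member in their response were found by Euclidean distance over the log2 fold changes in controls and in cKO mice, among 3109 named genes that changed in at least 1 of these comparisons. This was done for the 3 members with a log2 fold change of 1 or more. Nearest to Vwf were Ecm1, an extracellular matrix gene (distance 0.06), the receptor gene Tlr2 (0.14) and the GTPase gene Rac2 (0.19). Nearest to Pecam1 were Sp110 (0.02), F11r (0.03) and Ptprb, the endothelial phosphatase gene (0.05). Nearest to Icam1 were Naip2 (0.08), the macrophage gene Adgre1 (0.13) and Ctla2a (0.14). The likeness rests on 2 numbers per gene and is a description.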

How the data were processed

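Ribosomal RNA was depleted from total RNA of cortex and stranded libraries were made, per the labels' protocols. The word Saline stands in every sample title, and the genotype label, in which the injection is named, gave the groups. Tools named by the submitters' processing notes are cutadapt 3.5, STAR, RSEM and edgeR 3.30.3, with build GRCm39; their roles and the gene filter are not given in the sources used here. The authors' deposited tables give the log2 fold change and average log2 CPM of a gene, with an F statistic (a score with no fixed range), its p-value and the FDR, per the file headers. The deposited FDR equals a Benjamini-Hochberg adjustment of the deposited p-value over 13784 genes. Implied denominator degrees of freedom of 9.85, 9.76 and 8.66 show separate fits for LPS in controls, LPS in cKO mice and the genotypes.

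The headers give no direction. Read as LPS minus saline and cKO minus control, the level of an LPS group back-calculated from its own LPS table and from the genotype table differed with an SD of 0.0537 (controls) and 0.0503 (cKO) over genes; with any sign turned, the larger SD was 0.226 or more. Levels printed for a genotype come from its own LPS table; for Vwf in control LPS and cKO LPS this was 6.43 and 6.36 log2 CPM, against 6.63 and 6.55 in the genotype table. SE is the absolute fold change over the root of F and is approximate for the low genes Icam1, Icam2 and Plvap. The difference of LPS responses uses wider SE, from the normal quantile of each p-value; its tables share no library, while the genotype table shares its LPS libraries with both. Nothing says that the mice came from separate litters, so p-values measure only the spread between these samples. Lengths came from GENCODE vM21 and promoters from RefSeq, both on GRCm38, and no coordinate was joined to the files; the promoter table held 2 of the 7 members.

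The members, the gene lists and the tests were chosen with earlier results of these data known, and the promoter motifs after the sequences were seen. Named genes are all members, up to 4 called genes per list with the largest change, defining genes of marker lists, and the 3 genes nearest in response to each member with an absolute log2 fold change of at least 1. Itga4, Icam5 and F8 were chosen after their values were seen. Alternatives tried were a stricter FDR, a minimum fold change, a filter on low genes, centring, a GC and length trend, another SE and another reading of the mean level. Tests were checked on simulated data. Python 3.11.15, scipy 1.17.1 and pandas 2.3.3 were used.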

Additional observations from a re-analysis of the deposited data

How the results depend on the processing

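The count of members that rose was 5 in controls and 4 in cKO mice. With a minimum fold change of 1.5 it was 3 in controls (Itm2a and Vcam1 ended) and 4 in cKO mice. At an FDR below 0.01 it was 4 in controls (Vcam1 ended) and 1 in cKO mice, where Vwf kept its call and Pecam1, Icam1 and Plvap lost theirs. Counts and calls were the same with fold changes centred on the median gene, with a GC and length trend removed and when genes below a log2 CPM of 1 on average were dropped. No member passed between genotypes under any of these settings. For the difference of responses, none passed with SE from F, with centring or with the filter on low genes; the GC and length trend was not run for it. Reading the mean level as a mean of logs moved group levels of members by at most 0.33 on the log2 scale. No library could be left out, and no paired analysis was possible because the analysed tables hold no values per library. Depth is unknown.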

Other observations

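Genes that mark segments of the vascular tree were set beside the members, again with the members themselves left out. Of 5 other venous markers 2 rose in controls and 1 in cKO mice, and all 5 lay above 0 in each (medians 0.67 and 0.48). Those in controls were Ackr1 and Lcn2, the lipocalin gene of reactive venules and astrocytes. Lcn2 was near the floor in control saline, at an estimated 0.00671 CPM against 3.05 in cKO saline. Its levels in control LPS and cKO LPS were 5.15 and 6.92 CPM, so its rise in controls rests on that low start. Nr2f2, the transcription factor gene of venous identity, rose in cKO mice (0.71 ± 0.22 SE) and had 0.12 ± 0.20 SE in controls in the authors' deposited tables. Of 7 capillary markers 1 rose and 1 fell in controls, and 3 rose and 1 fell in cKO mice (medians 0.21 and 0.11). The amino acid transporter gene Slc7a5 rose in both (0.53 ± 0.10 SE and 0.39 ± 0.11 SE), and Car4, a carbonic anhydrase gene, rose in cKO mice (1.12 ± 0.17 SE) in the authors' deposited tables. Mfsd2a, the lipid transporter gene that marks barrier capillaries, fell in controls (-0.57 ± 0.13 SE) and Rgcc fell in cKO mice (-0.73 ± 0.13 SE) in the authors' deposited tables. Of 5 measured arterial markers none changed in controls, while Sema3g (0.75 ± 0.15 SE) and Efnb2 (0.70 ± 0.15 SE) rose and Hey1 (-0.38 ± 0.09 SE) fell in cKO mice in the authors' deposited tables. Differences between the genotypes in these segment markers after LPS did not pass for any of them in the authors' deposited table.

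Of 9 fibroblast and meningeal markers, 4 rose in controls and 2 in cKO mice (medians 0.45 and 0.65), and their summed level was 138.0 CPM in control saline, 171.7 in control LPS, 129.5 in cKO saline and 151.3 in cKO LPS. Of 8 neuronal markers none rose and 1 fell in controls, and 2 rose and 1 fell in cKO mice, with medians of 0.00 and -0.02. Of 7 astrocyte markers 1 rose (Gfap) and 1 fell (Aqp4) in controls, and 3 fell in cKO mice (medians -0.08 and 0.09). Gfap had a log2 fold change of 1.35 in controls and 1.06 ± 0.34 SE in cKO mice (FDR = 0.0548) in the authors' deposited tables. It thus narrowly missed the threshold in cKO mice.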
